A study of Mus musculus with 16 samples.

Results

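The first 4 days after doxycycline withdrawal were described by comparing the 2 libraries taken 4 days after withdrawal (replicates A and B) with the 2 libraries of total viable cells taken at day 12 of doxycycline (replicates A and B), chosen by their titles. These are 4 of the 16 RNA sequencing libraries in the series. All libraries came from AML246, a line of mouse acute myeloid leukaemia cells kept in IMDM medium with 10% FCS and interleukin-3. Doxycycline at 0.1 ug/mL was present from day 0 to day 12 and absent afterwards, over a course of 24 days. The title of the series ties doxycycline to restoration of PU.1 and its absence to knockdown of PU.1. Day 0 cells had received no doxycycline, day 12 cells had received it for 12 days, and cells 4 days off had received it for 12 days and then grown without it for 4 days. The untreated cells at day 0, the cells after 4 days on doxycycline and the cells 12 days off served as reference points. All cells were of 1 line, so the values describe that line. The labels do not state the construct by which doxycycline acts, nor whether replicates A and B were separate cultures. The p-values therefore measure the spread between these libraries, which may be technical.

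PU.1, encoded by Spi1, is an ETS family transcription factor that binds purine-rich DNA around a GGAA core and is needed for the development of macrophages and granulocytes. It activates genes for myeloid receptors, integrins, the oxidative burst and immune signalling, among them Itgam (the CD11b integrin chain) and Ptprc (CD45). Eosinophils are granulocytes that carry Siglec-F and the eotaxin receptor and store peroxidase, major basic protein and ribonucleases in their granules. Cells that sense low oxygen stabilise HIF transcription factors, which bind a short core sequence at genes for glycolysis, oxygen sensing and mitochondrial turnover, among them Bnip3.

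The 4 libraries compared held 15594698 to 26509803 counted reads, within the range of 12962801 to 26509803 over all 16. Before any gene is described, the replicates 4 days off need attention, because they differed from each other more than those at day 12. Their counts gave a chi-square of 13.4 per gene between A and B, against 2.97 for the day 12 pair, the lowest of the 8 groups. The day 0 pair gave 12.7, the day 4 pair 18.9 and the 12 days off pair 73.5. The remaining pairs gave 5.89 to 7.12. On the first principal component of all libraries the day 12 libraries stood at 53.9 and 51.3, those 4 days off at -18.1 (A) and -4.1 (B), and those at day 0 at -60.2 and -61.6. Replicate A thus lay farther from day 12 than replicate B. Of the genes called lower, 73.3% stood farther from day 12 in A than in B, and of those called higher 77.7% did. The mitochondrially encoded share of reads was 2.02% and 2.12% at day 12 and 3.59% (A) and 3.01% (B) 4 days off.

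Levels 4 days off differed from day 12 in both directions. Of 13652 genes, 5029 were called at an adjusted p under 0.05 by the quasi-likelihood test of edgeR, which is 36.8% of the genes tested. There were 2459 higher (18.0%) and 2570 lower (18.8%) 4 days off than at day 12. Every count of list members called in this comparison, given below, is to be read against these shares. Most changes were small: the median log2 fold over all genes was 0.04 and the median size of a log2 fold was 0.35. Among called genes, 753 were more than 2-fold higher and 601 more than 2-fold lower, while 50 were more than 8-fold higher and 81 more than 8-fold lower. Downward changes thus held the larger part of the most extreme folds and upward changes the larger part of those past 2-fold. The counts depended on single libraries: without replicate A of the 4 days off group 1097 genes were higher and 1425 lower, without replicate A of day 12 1243 and 1575, and without replicate B of day 12 1407 and 1741. Scaling by library size alone moved the median log2 fold of all genes to 0.15 and the counts to 3480 higher and 1906 lower, so directions below are relative to TMM scaling.

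**Figure D1:**
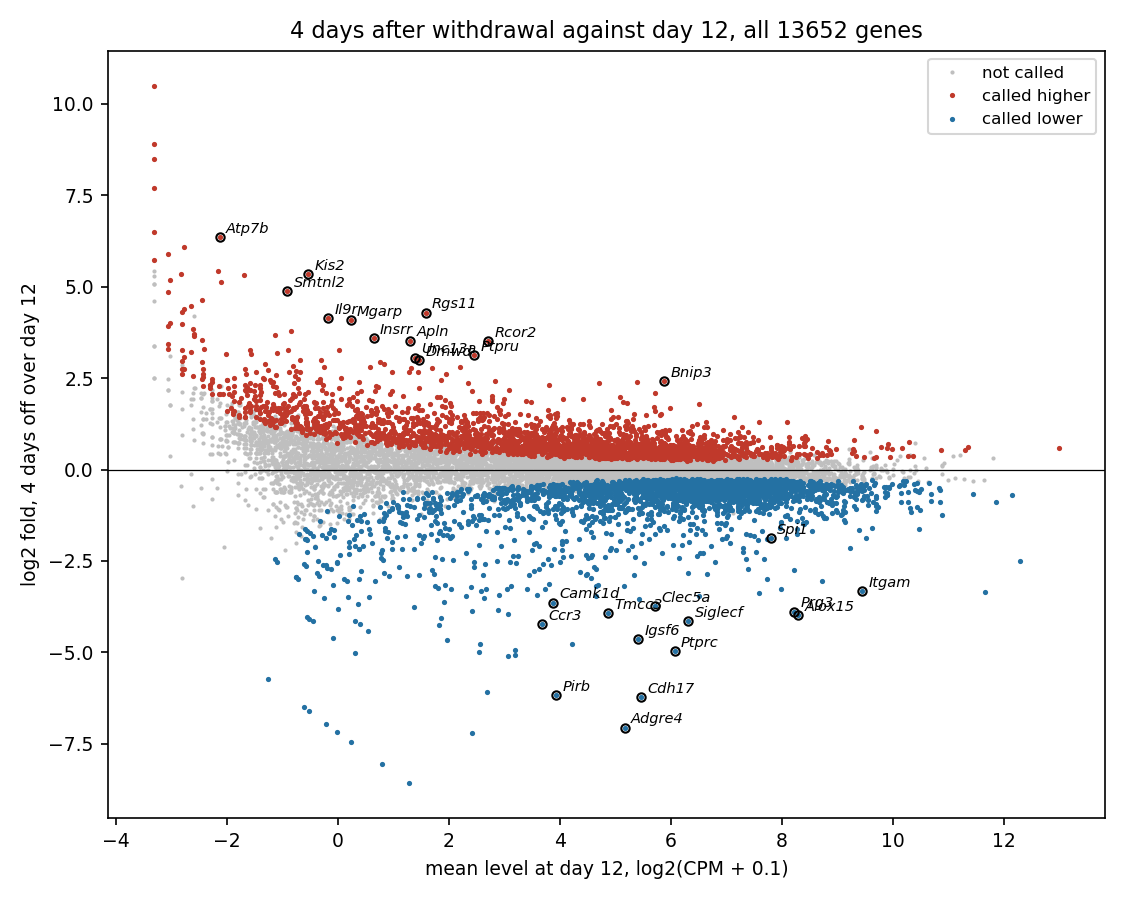
Log2 fold of 4 days off over day 12 (vertical axis) against the mean level at day 12 on a log2(CPM + 0.1) axis for all 13652 genes, with called genes in red (higher) and blue (lower), grey for the rest, and the named genes circled. The circled genes had to reach 10 CPM in the higher group, so the circled falls lie to the right of the circled rises other than Bnip3, and uncircled genes with low levels at day 12 reached folds as large.

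Spi1 itself (Entrez 20375, mm10 chromosome 2, 91082374 to 91115759) checked the labels of the schedule. It stood at 226 and 219 CPM (reads scaled to library size by TMM) at day 12 and at 65.0 and 56.6 CPM 4 days off. The libraries of the 2 groups were far apart, and those 4 days off overlapped the untreated cells, which had 66.3 and 56.8 CPM. Spi1 fell 3.65-fold (log2 fold -1.87, SE 0.15, edgeR adjusted p = 4.8e-07). The log2 fold over day 0 was -0.02 (edgeR adjusted p = 0.94). The mean after 4 days on was 239 CPM. Genes that had risen with Spi1 are taken up below by their own levels.

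**Figure D2:**
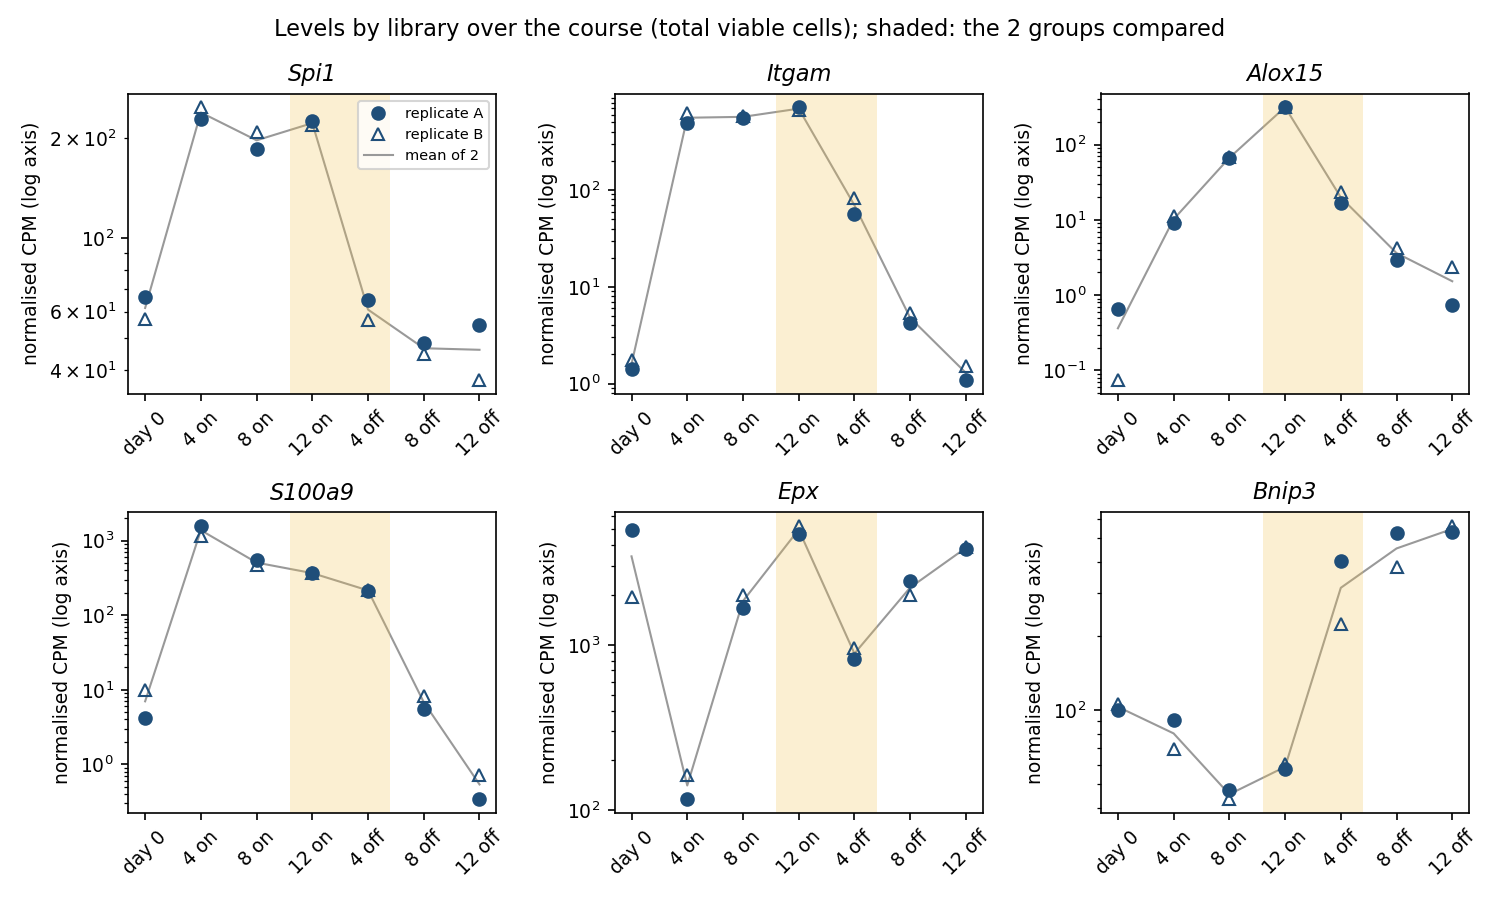
Levels of 6 genes in total viable cells by library (circles replicate A, triangles replicate B, line the mean of 2) at day 0, after 4, 8 and 12 days on doxycycline and after 4, 8 and 12 days off, on log axes of TMM-scaled CPM. Spi1 stood at 65.0 and 56.6 CPM 4 days off, Itgam at 57.0 and 82.4 CPM, Epx passed through a low, and Bnip3 went above every earlier library.

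Itgam (Entrez 16409, chromosome 7, 128062640 to 128118491) had 719 and 670 CPM at day 12 and 57.0 and 82.4 CPM 4 days off. This is a fall of 9.98-fold (log2 fold -3.32, SE 0.17, edgeR adjusted p = 6.4e-09). The untreated cells had a mean of 1.59 CPM, so Itgam remained above its untreated level when the Spi1 libraries overlapped theirs. Its log2 fold over day 0 was 5.46 (SE 0.24, edgeR adjusted p = 1.8e-09). It went on to a mean of 1.29 CPM at 12 days off (log2 fold -5.74 against 4 days off, edgeR adjusted p = 1.1e-09).

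The PU.1 target list held 24 measured genes, chosen from textbook knowledge with earlier results of these data known. Of these, 19 fell, 0 rose and 5 did not pass the test, against 18.8% and 18.0% of all genes, and their median log2 fold was -1.29 against 0.04 for all genes. The steepest among them by adjusted p were Ptprc, Ncf1 and Tyrobp. Ptprc (CD45, a receptor tyrosine phosphatase of all white cells; Entrez 19264, chromosome 1, 138062859 to 138175756) went from 68.1 and 65.4 CPM to 2.17 and 2.08 CPM. That is a fall of 31.3-fold (log2 fold -4.97, SE 0.17, edgeR adjusted p = 6.4e-11), with the 2 libraries of each group nearly equal. Its mean was 0.155 CPM at day 0, 66.6 CPM after 4 days on and 0.402 CPM after 12 days off.

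Ncf1, the p47phox subunit of the phagocyte NADPH oxidase, went from 427 and 418 CPM to 51.6 and 50.7 CPM (log2 fold -3.05, SE 0.10, edgeR adjusted p = 6.4e-11). Tyrobp, the DAP12 adaptor that signals for several myeloid receptors, went from 192 and 194 CPM to 17.7 and 19.8 CPM (log2 fold -3.37, SE 0.15, edgeR adjusted p = 1.1e-09). Both had libraries that did not overlap between the groups. The 5 members that did not pass the test were the receptor chains Csf2ra (-0.34) and Csf3r (-0.07), the Fc receptor gamma chain Fcer1g (0.01), the oxidase subunit Ncf4 (-0.24) and Mpeg1 (-0.83), given as log2 folds. They were chosen for mention after their values were seen. Cd33, a sialic acid-binding receptor, had 77 reads over the day 12 libraries and 0 reads 4 days off, at least 18.7-fold lower if the group is given a floor of 3 reads.

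The Ptprc promoter is shown because Ptprc had the lowest adjusted p of the PU.1 target list. The 250 bases before its RefSeq start (GRCm38.p6, chr1:138175306-138175555, minus strand, inside the full span of the gene because a longer RefSeq model begins farther upstream) are printed 5′ to 3′, with matches to GAGGAA or AGGAAGT on either strand in capitals.
Ptprc: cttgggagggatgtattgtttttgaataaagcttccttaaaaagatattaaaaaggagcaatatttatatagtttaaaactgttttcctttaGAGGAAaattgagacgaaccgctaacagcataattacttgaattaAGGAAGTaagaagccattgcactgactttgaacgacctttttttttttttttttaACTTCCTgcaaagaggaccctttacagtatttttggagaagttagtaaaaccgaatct
A script found 3 matches in that window, at -158, -113 and -58 from the start, the last on the opposite strand. Either motif lay in 26.5% of the 10257 tested genes with a RefSeq window, in 30.1% of those called lower, in 24.9% of those called higher and in 45.3% (72 of 159) of those more than 4-fold lower. Of the 15 list members with a window, 8 held a match (53.3%). The window of Ncf1 held 0 matches. A match is a description of letters and was not tested for binding, and the share of the list depends on how its members were chosen.

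The 12 largest falls by the naming rule included Ptprc, 4 eosinophil genes and several further receptors. Adgre4, an adhesion G protein-coupled receptor of myeloid cells (Entrez 52614, chromosome 17, 55749984 to 55853662), had 34.7 and 36.9 CPM at day 12 and 0.163 and 0.379 CPM 4 days off. Its fall was the largest by this rule (log2 fold -7.06, SE 0.29, edgeR adjusted p = 6.4e-09), with 9 reads over both libraries 4 days off against 1686 at day 12. Cdh17, a cadherin, went from 44.0 and 43.9 CPM to 0.489 and 0.695 CPM (log2 fold -6.22, SE 0.25). Pirb, an inhibitory immunoglobulin-like receptor, went from 14.8 and 15.4 CPM to 0.163 and 0.253 CPM (log2 fold -6.17, SE 0.36). Pirb belongs to a family of near-identical copies among which the counting could split reads, so its level is uncertain. Igsf6 (-4.63), Clec5a (-3.74), a lectin receptor that signals through DAP12, Tmcc3 (-3.91) and the calcium-dependent kinase Camk1d (-3.64) also fell.

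**Figure D3:**
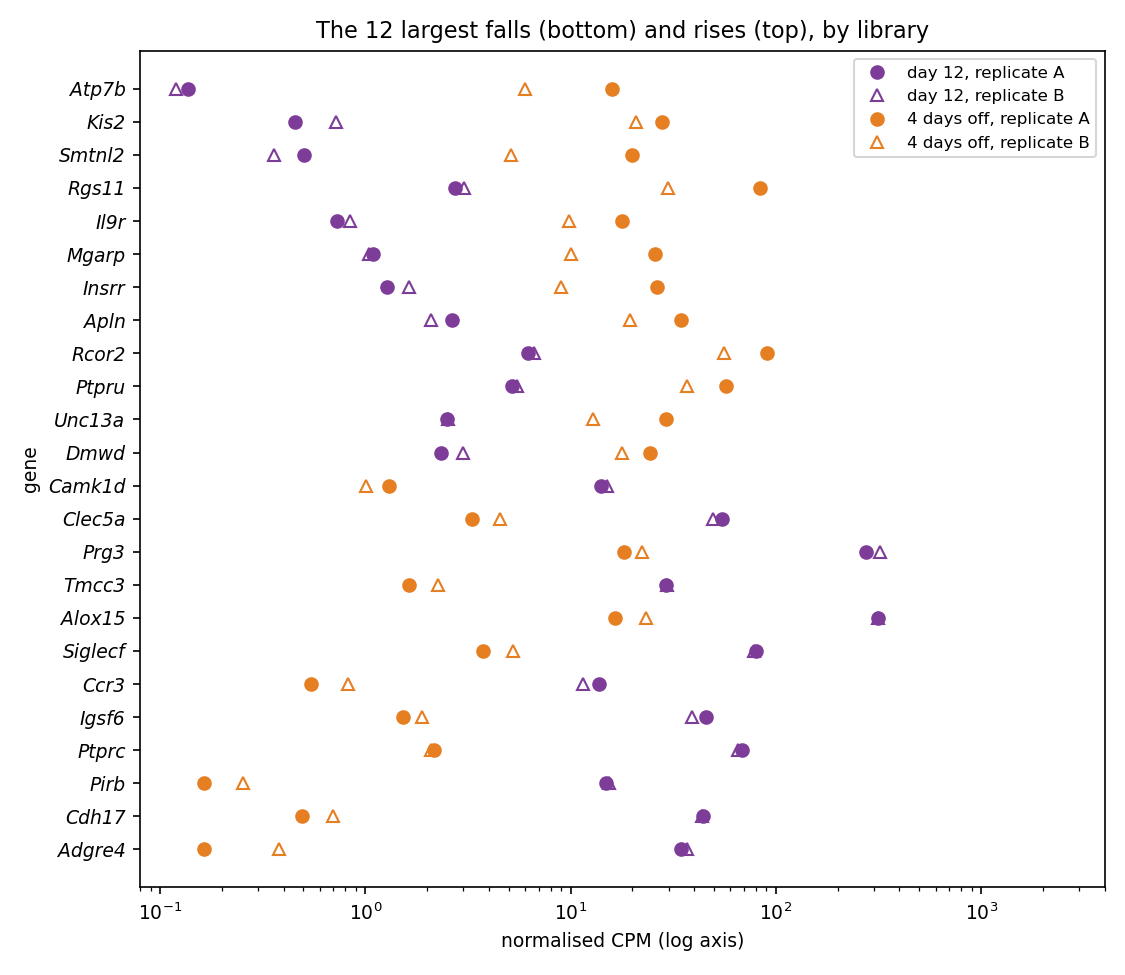
TMM-scaled CPM on a log axis in the 2 day 12 libraries (purple) and the 2 libraries 4 days off (orange) for the 12 largest falls (below) and 12 largest rises (above), with filled circles for replicate A and open triangles for replicate B. The day 12 pairs of the falls lie close together, while some pairs with low levels lie apart, such as Kis2 (0.456 and 0.719 CPM). For all 12 rises replicate A 4 days off lies to the right of replicate B.

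Siglecf, Ccr3, Alox15 and Prg3 are the eosinophil genes among the 12. Siglecf, the eosinophil sialic acid-binding lectin, had 80.3 and 78.2 CPM at day 12 and 3.75 and 5.24 CPM 4 days off (log2 fold -4.15, SE 0.17, edgeR adjusted p = 7.1e-10). Ccr3, the eotaxin receptor, went from 13.8 and 11.5 CPM to 0.543 and 0.821 CPM (log2 fold -4.22, SE 0.27). Alox15, the 12/15-lipoxygenase, went from 313 and 314 CPM to 16.5 and 23.2 CPM (log2 fold -3.98, SE 0.26). Prg3, a paralog of major basic protein, went from 276 and 321 CPM to 18.2 and 22.4 CPM (log2 fold -3.88, SE 0.36). Ear1, an eosinophil ribonuclease named through the list, went from 88.9 and 91.7 CPM to 7.33 and 9.28 CPM (log2 fold -3.45, edgeR adjusted p = 4.9e-08).

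All 10 measured eosinophil markers fell, with a median log2 fold of -3.66. Their summed level was 8590 and 9580 CPM at day 12 and 1190 and 1350 CPM 4 days off. In bulk RNA, fewer cells of a type and less RNA per cell cannot be told apart. Epx, eosinophil peroxidase, had 4700 and 5260 CPM at day 12 and 818 and 953 CPM 4 days off (log2 fold -2.49, edgeR adjusted p = 8.1e-05). Il5ra, the interleukin-5 receptor chain, fell from 39.3 and 41.7 CPM to 7.22 and 8.34 CPM. Ear1, Ear2 and Ear6 are close paralogs, so reads may be split among them. The eosinophil call of 10 of 10 held in every fit that left out 1 of the 4 libraries.

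Of 15 neutrophil secondary granule and maturation genes, 9 fell and 0 rose, with a median log2 fold of -0.77. Itgb2l, a beta integrin chain of maturing neutrophils, fell from 9.57 and 7.55 CPM to 0.76 and 1.14 CPM (log2 fold -3.18). Mmp8, the neutrophil collagenase, fell from 3.42 and 3.08 CPM to 0.217 and 0.505 CPM (log2 fold -3.18). Pglyrp1, a peptidoglycan-binding granule protein, fell from 384 and 390 CPM to 182 and 168 CPM (log2 fold -1.15). The calprotectin genes and Ngp showed smaller differences. S100a9, a calprotectin subunit, had 367 and 367 CPM at day 12 and 213 and 217 CPM 4 days off (log2 fold -0.77, SE 0.23, edgeR adjusted p = 0.019), a call that every fit without 1 of the libraries lost (adjusted p 0.067 to 0.11). S100a8, its partner, had 47.4 and 37.7 CPM against 38.0 and 31.8 CPM (log2 fold -0.28, edgeR adjusted p = 0.35), and Ngp had 15.5 and 14.7 CPM against 14.1 and 23.0 CPM (log2 fold 0.30, edgeR adjusted p = 0.35).

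Azurophil granule genes, which mark promyelocytes, split 3 higher (30.0%) and 3 lower (30.0%) of 10, against 18.0% and 18.8% of all genes. Mpo, myeloperoxidase, rose from 32.2 and 28.4 CPM to 90.5 and 67.4 CPM (log2 fold 1.38), and Ctsg, cathepsin G, from 37.7 and 32.7 CPM to 143 and 111 CPM (log2 fold 1.86). Both lie in the primary granules of early granulocyte precursors. Elane, neutrophil elastase, rose too, while Ctsc (-0.77), the protease that activates these enzymes, Cst7 and Ms4a3 fell.

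Of 10 macrophage and monocyte markers, 6 fell and 2 rose, against 18.8% and 18.0% of all genes. The share that rose was thus close to that of all genes. Adgre1 (F4/80) fell from 42.3 and 43.1 CPM to 3.26 and 4.04 CPM (log2 fold -3.55). Fcgr1, the high-affinity IgG receptor, fell from 8.02 and 8.43 CPM to 0.163 and 0.316 CPM (log2 fold -5.1), and Csf1r, the receptor of macrophage colony-stimulating factor, from 12.7 and 11.7 CPM to 2.17 and 1.52 CPM (log2 fold -2.71). The 2 members that rose, Cx3cr1 (2.46 and 1.60 CPM to 5.48 and 4.55 CPM) and Cd163 (0.228 and 0.36 CPM to 1.95 and 1.45 CPM), were low in all 4 libraries. Of 8 basophil and mast cell markers 4 fell and 0 rose, against the same shares of all genes. Among those that fell was Il4, from 3.15 and 3.28 CPM to 0.489 and 0.379 CPM (log2 fold -2.86). Hdc, which makes histamine, and Gata2 also fell, but both calls were lost without any 1 of the 4 libraries. The count of 4 was 2 without replicate A 4 days off and 1 without each of the other libraries.

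Markers of other lineages were called in both directions: 2 of 6 dendritic cell genes rose and 2 fell, 1 of 5 erythroid genes rose and 1 fell, 1 of 7 megakaryocyte genes rose and 2 fell, 2 of 4 T and NK cell genes rose and 1 of 2 B cell genes rose, against 18.0% and 18.8% of all genes. Of the dendritic cell genes Ccr7 and Bst2 rose while Itgax and Flt3 fell, and without replicate A 4 days off or either day 12 library 0 rose and 1 fell. Among the erythroid genes Epor rose, a call lost without the same libraries, and Gata1 fell. Itgb3 and Itga2b were the megakaryocyte genes that fell. Of 4 T and NK cell genes Lck, a lymphocyte kinase, rose from 1.78 and 1.40 CPM to 12.5 and 11.7 CPM (log2 fold 2.93, edgeR adjusted p = 1e-07) and Nkg7 from 161 and 152 CPM to 363 and 344 CPM. Cd79b, a chain of the B cell receptor, was the B cell gene that rose, and its call was lost without replicate A 4 days off or replicate B of day 12. These lists are small, and their part in the results above was not tested.

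Of 11 stem and progenitor genes 3 rose (27.3%), Muc13 and Myb among them, and 3 fell (27.3%), against 18.0% and 18.8% of all genes. Without replicate A 4 days off, and without either day 12 library, 1 fell. Cd34, the progenitor surface protein, fell from 139 and 134 CPM to 40.0 and 48.1 CPM (log2 fold -1.63), as did Flt3 and Gata2. Of 34 haematopoietic transcription factors 14 fell and 3 rose (Myb, Gfi1 and Spib), with a median log2 fold of -0.36. Without replicate B of day 12 9 fell and 1 rose, and without replicate A 4 days off 11 fell and 1 rose. With library size alone 5 rose. Klf6 fell from 76.0 and 73.3 CPM to 23.3 and 20.1 CPM (log2 fold -1.78) and Klf2 from 11.8 and 9.15 CPM to 0.977 and 1.20 CPM (log2 fold -3.26). Both are zinc-finger factors of the Kruppel-like family. Irf5, an interferon regulatory factor of macrophages, fell by 2.46 on the log2 scale.

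Of 5 NADPH oxidase subunits 4 fell. Next to Ncf1 above, Rac2 went from 942 and 901 CPM to 512 and 576 CPM (log2 fold -0.76). Of 22 Fc receptor and ITAM signalling genes 16 fell and 1 rose, with a median log2 fold of -1.01. Clec5a fell from 54.8 and 49.4 CPM to 3.31 and 4.55 CPM, and Cd300lf, an inhibitory receptor, from 36.2 and 34.3 CPM to 4.07 and 3.66 CPM. The member that rose was Clec7a, the beta-glucan receptor dectin-1, from 29.2 and 32.6 CPM to 84.0 and 57.0 CPM (log2 fold 1.19). Without replicate B 4 days off 2 members rose, and with library size alone 3. Of 16 integrin chains 11 fell and 0 rose. Itgb2, the beta chain that pairs with Itgam, fell from 1930 and 1820 CPM to 778 and 804 CPM (log2 fold -1.25).

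Of 9 complement genes and receptors 6 fell and 0 rose, with a median log2 fold of -2.55. Cfp, properdin, fell from 25.6 and 24.4 CPM to 4.45 and 3.03 CPM (log2 fold -2.73). C3ar1, the C3a receptor, had 111 reads at day 12 and 0 reads 4 days off, at least 27-fold lower at the same floor. Of 35 lysosomal genes 24 fell and 2 rose, with a median log2 fold of -0.54, and 0 or 1 rose without any 1 of the 4 libraries. Man2b1, lysosomal alpha-mannosidase, fell from 1450 and 1390 CPM to 428 and 493 CPM (log2 fold -1.62), and Asah1, acid ceramidase, from 444 and 417 CPM to 170 and 174 CPM (log2 fold -1.32).

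Of 13 eicosanoid enzymes 5 fell and 1, Ptgds, rose. Tbxas1, thromboxane synthase, fell from 8.57 and 9.55 CPM to 0.272 and 0.253 CPM (log2 fold -5.08), and Alox5ap, the helper of 5-lipoxygenase, from 188 and 185 CPM to 36.3 and 41.1 CPM (log2 fold -2.27). Of 20 cytokine receptor chains 9 fell and 5 rose, among them Il9r, Epor, Il17ra and Tnfrsf1b, and 3 rose without replicate A 4 days off or either day 12 library. Of 9 MHC class II genes 3 fell and 1 rose: H2-Ab1, a class II beta chain, went from 2.87 and 3.40 CPM to 30.2 and 12.4 CPM (log2 fold 2.76, SE 0.37, edgeR adjusted p = 8.6e-05). Among the members that fell, Cd74, the class II invariant chain, rested on 29 reads at day 12 and 1 read 4 days off, a ratio of 0.0513 with an exact 95% counting interval of 0.00126 to 0.309. Without replicate A 4 days off 1 class II gene fell. Without replicate B of day 12, and with library size alone, 2 rose.

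**Figure D4:**
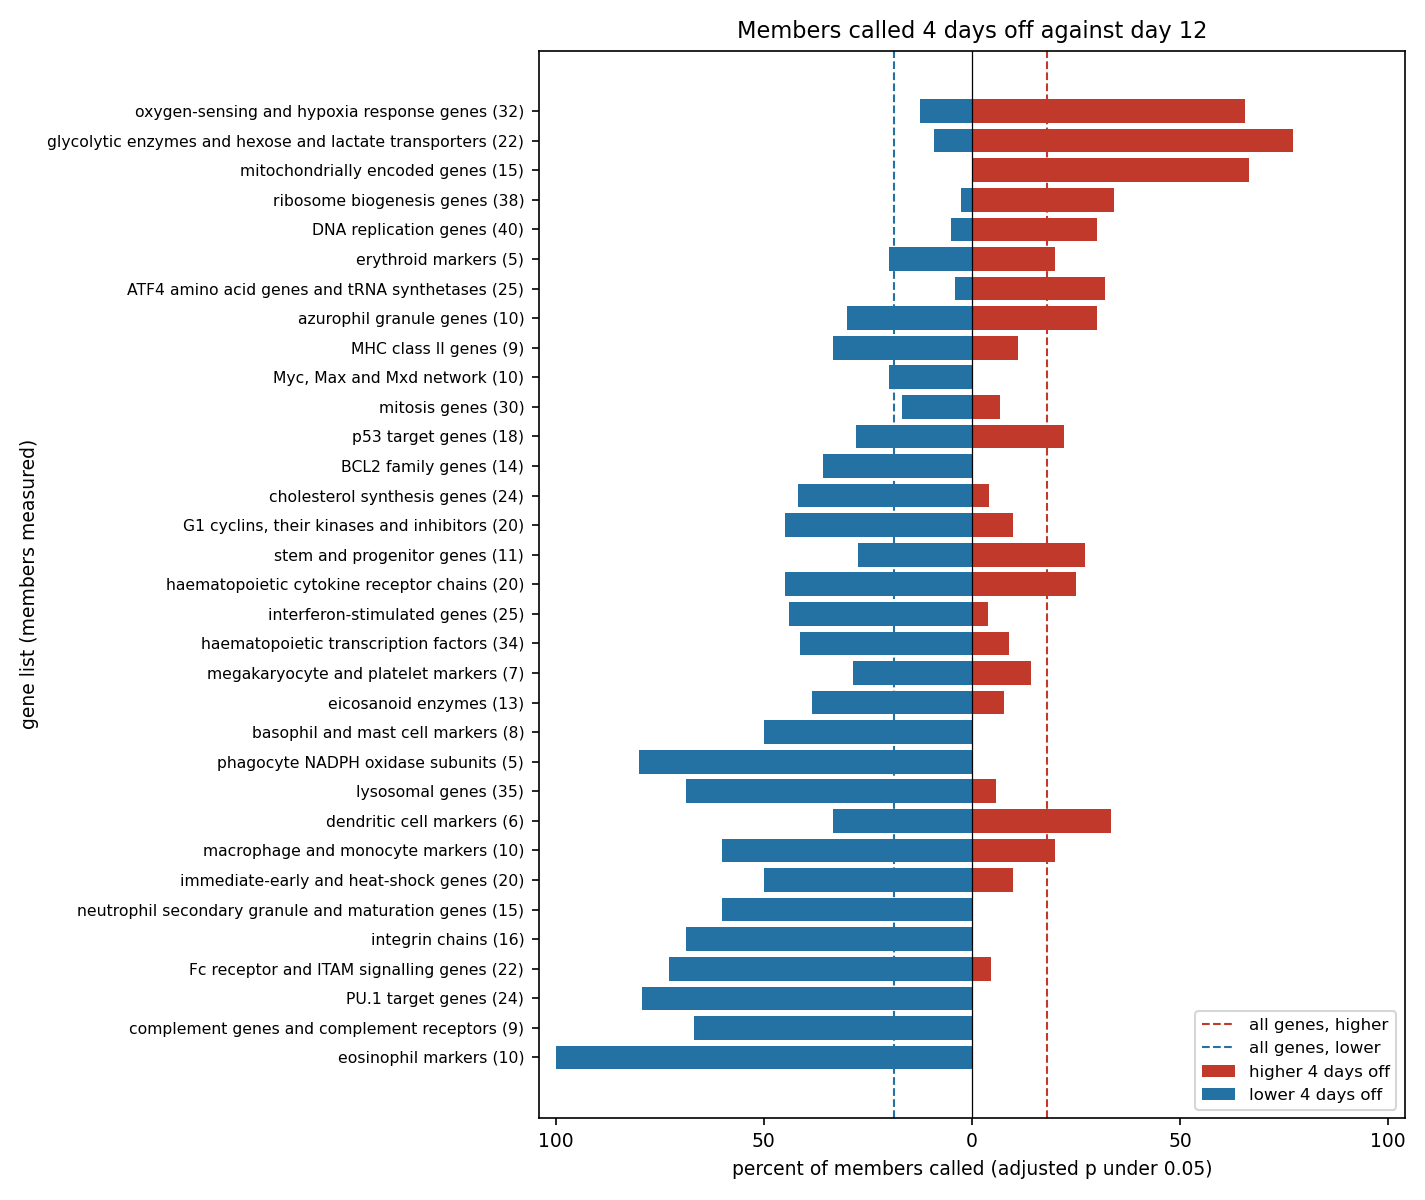
Percent of the measured members of each gene list with at least 5 members that were called higher (red, right) or lower (blue, left) 4 days off against day 12, with the number of members in brackets and dashed lines at the percent of all genes called in that direction. Eosinophil markers reached 10 of 10 lower, and glycolytic (77.3%), mitochondrially encoded (66.7%) and hypoxia response genes (65.6%) reached farthest to the right.

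Among the rises, Bnip3 (Entrez 12176, chromosome 7, 138890836 to 138909506), a mitochondrial outer membrane protein that acts in mitophagy, had 57.4 and 60.1 CPM at day 12 and 404 and 224 CPM 4 days off. Both libraries 4 days off were above both at day 12, and they differed widely from each other. Bnip3 rose 5.34-fold (log2 fold 2.42, SE 0.23, edgeR adjusted p = 2.2e-06). It also passed the untreated level, with a mean of 314 ± 127 CPM (SD, n = 2) against 103 ± 4.28 CPM at day 0 (log2 fold 1.61, edgeR adjusted p = 7.6e-05). The means at 8 and 12 days off were higher again, at 454 and 545 CPM.

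The oxygen-sensing and hypoxia response list, to which Bnip3 belongs, held 32 measured genes. Of these 21 rose (65.6%), 4 fell (12.5%) and 7 did not pass the test, with a median log2 fold of 0.93. Of all genes 18.0% rose and 18.8% fell, so the share that fell was below that of all genes. Pdk1, the kinase that holds pyruvate back from the mitochondrion (Entrez 228026, chromosome 2, 71873215 to 71903858), rose from 38.1 and 35.3 CPM to 152 and 108 CPM (log2 fold 1.82, SE 0.15, edgeR adjusted p = 6.9e-07). Egln1, the oxygen-sensing prolyl hydroxylase PHD2, rose from 53.7 and 50.2 CPM to 201 and 137 CPM (log2 fold 1.70, SE 0.15, edgeR adjusted p = 9.2e-07). Further members named after their values were seen were Egln3, a related hydroxylase (55.7 and 56.3 CPM to 192 and 120 CPM), and Stc2, a secreted glycoprotein (5.97 and 8.03 CPM to 47.5 and 27.9 CPM). A pair of members was without a read at day 12: Ak4, a mitochondrial adenylate kinase, had 314 reads 4 days off, at least 143-fold higher with the same floor of 3 reads at day 12, and P4ha2, a collagen prolyl hydroxylase, had 78 reads, at least 35.6-fold higher. With both at these bounds the list median remained at 0.93.

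The 4 members that fell included the HIF subunits themselves. Hif1a fell from 440 and 440 CPM to 253 and 294 CPM (log2 fold -0.68, edgeR adjusted p = 0.0013) and Epas1, which encodes HIF-2 alpha, from 4.97 and 6.43 CPM to 2.50 and 2.27 CPM (log2 fold -1.26). The remaining 2 were the repressor Bhlhe40 (84.3 and 92.6 CPM to 56.1 and 39.1 CPM) and Pfkfb3 (78.2 and 80.0 CPM to 47.3 and 53.2 CPM), a regulator of glycolytic flux. Transcript levels of the HIF subunits say nothing of their protein, which was not measured. Replicate A 4 days off was above replicate B for 28 of the 32 members, with median log2 differences from day 12 of 1.16 in A and 0.64 in B. Without replicate A 17 members rose, and without replicate B 21 did.

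Promoters of 2 members are shown because their transcripts rose together and hypoxia response elements have a known core. The 250 bases before the RefSeq start of Bnip3 (GRCm38.p6, chr7:138909507-138909756, minus strand) and of Pdk1 (chr2:71872974-71873223, plus strand) are printed 5′ to 3′, with matches to ACGTG or GCGTG on either strand in capitals.
Bnip3: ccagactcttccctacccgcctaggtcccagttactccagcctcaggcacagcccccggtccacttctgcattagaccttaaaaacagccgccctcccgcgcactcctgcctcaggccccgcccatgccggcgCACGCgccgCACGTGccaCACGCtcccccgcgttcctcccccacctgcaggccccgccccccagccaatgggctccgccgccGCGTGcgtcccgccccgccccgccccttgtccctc
Pdk1: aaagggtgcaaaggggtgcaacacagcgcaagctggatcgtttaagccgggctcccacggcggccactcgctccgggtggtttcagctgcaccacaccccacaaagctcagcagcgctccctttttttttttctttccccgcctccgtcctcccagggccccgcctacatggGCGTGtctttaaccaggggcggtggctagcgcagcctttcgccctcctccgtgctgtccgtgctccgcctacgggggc
The Bnip3 window held 5 matches, of which 2 overlapped on opposite strands, and the Pdk1 window held 1, at -78. Either motif lay in 24 of 28 list members with a window (85.7%), in 56.0% of all tested genes with one, in 56.6% of those called higher and in 56.2% of those called lower. Of genes more than 4-fold lower 32.1% held one, and of those more than 4-fold higher 55.7% did. The shares among genes called higher and lower thus lay close to that of all genes, and no binding was measured. The list was written as hypoxia response genes with earlier results of these data known, so its share depends on that choice. The window of Egln1, not printed, held 2 matches.

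The glycolysis list shares members with the hypoxia list. Of 22 glycolytic enzymes and hexose and lactate transporters 17 rose (77.3%) and 2 fell (9.09%), with a median log2 fold of 0.82. Of all genes 18.0% rose and 18.8% fell. Slc16a3, the lactate exporter MCT4, rose from 194 and 193 CPM to 519 and 423 CPM (log2 fold 1.29, SE 0.12, edgeR adjusted p = 2.1e-06). Pgk1, phosphoglycerate kinase, rose from 30.6 and 31.6 CPM to 79.0 and 60.7 CPM (log2 fold 1.17, SE 0.12, edgeR adjusted p = 4e-06). The reads of Pgk1 and Gapdh may be shared with processed pseudogenes. The 2 members that fell are isoforms known from blood cells: the glucose transporter Slc2a3 went from 77.0 and 81.8 CPM to 10.7 and 11.9 CPM (log2 fold -2.82, SE 0.12, edgeR adjusted p = 7.4e-10), and the hexokinase Hk3 from 31.9 and 34.0 CPM to 11.2 and 12.5 CPM (log2 fold -1.48). The ubiquitous transporter Slc2a1 moved the other way, from 93.2 and 99.6 CPM to 248 and 181 CPM. Replicate A was above replicate B for 19 of 22 members, and without replicate A 10 members rose.

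The 12 largest rises by the naming rule were mostly genes with little expression at day 12. Atp7b, a copper-transporting ATPase (Entrez 11979, chromosome 8, 21992783 to 22060074), had 0.137 and 0.12 CPM at day 12 and 15.9 and 6.0 CPM 4 days off (log2 fold 6.36, SE 0.56, edgeR adjusted p = 1.1e-06), resting on 6 reads against 387. It had 1.58 and 1.40 CPM at day 0 and 1.62 and 2.83 CPM at 12 days off, so the libraries 4 days off stood above both ends. Kis2, a non-coding transcript of the X chromosome, had 0.456 and 0.719 CPM and then 27.9 and 20.8 CPM (log2 fold 5.34, SE 0.28), below its 44.9 and 47.7 CPM at day 0. Il9r, the interleukin-9 receptor, had 0.729 and 0.839 CPM and then 17.9 and 9.79 CPM (log2 fold 4.13, SE 0.37), against 114 and 76.9 CPM at day 0.

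Ptpru, a receptor tyrosine phosphatase, likewise came part of the way back, from 5.20 and 5.51 CPM to 57.0 and 37.0 CPM (log2 fold 3.13) against 311 and 299 CPM at day 0. Rgs11, a regulator of G protein signalling, rose from 2.74 and 3.04 CPM to 83.5 and 29.7 CPM (log2 fold 4.29), and Rcor2, a subunit of corepressor complexes with LSD1, from 6.20 and 6.67 CPM to 91.0 and 55.9 CPM (log2 fold 3.51). Apln, which encodes the peptide hormone apelin, rose from 2.64 and 2.08 CPM to 34.7 and 19.4 CPM (log2 fold 3.52). The remaining 5 were Smtnl2 (4.87), Mgarp (4.07), a mitochondrial protein, Insrr (3.6), an insulin receptor relative, Unc13a (3.06), a vesicle-priming protein, and Dmwd (2.99), given as log2 folds. All 12 were higher in replicate A than in replicate B 4 days off.

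Lists tied to growth came next, to be read against 18.0% of all genes higher and 18.8% lower. The shares that rose and fell were 34.2% and 2.63% for ribosome biogenesis genes. For ATF4 amino acid genes and tRNA synthetases they were 32.0% and 4.0%. Of 38 ribosome biogenesis genes 13 rose and 1, Ncl, fell, with a median log2 fold of 0.24. Gnl3, the nucleolar protein nucleostemin, rose from 52.9 and 59.9 CPM to 112 and 105 CPM (log2 fold 0.94, SE 0.11, edgeR adjusted p = 2e-05), between its means of 156 CPM at day 0 and 29.5 CPM after 4 days on. With library size alone as scaling 21 members rose and 0 fell, and the call of Ncl was lost without replicate A 4 days off or either day 12 library, while 3 fell without replicate B 4 days off. Of 25 ATF4 amino acid genes and tRNA synthetases 8 rose and 1, Slc7a11, fell. Without replicate A of day 12 5 rose. Without replicate A 4 days off 0 fell, and without replicate B 4 days off 2 fell. Phgdh, the first enzyme of serine synthesis, rose from 18.9 and 17.7 CPM to 36.9 and 44.6 CPM (log2 fold 1.15), Psat1 by a log2 fold of 0.85 and Atf4 itself by 0.58. Myc, the growth regulator, had 186 and 180 CPM at day 12 and 196 and 209 CPM 4 days off (log2 fold 0.15, edgeR adjusted p = 0.23). Its antagonist Mxd1 fell from 120 and 124 CPM to 53.6 and 52.4 CPM (log2 fold -1.20).

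Cell cycle lists were mixed. Of 20 G1 cyclins, kinases and inhibitors 9 fell and 2 rose, and 5 fell without replicate A 4 days off. Rbl2, the p130 pocket protein of resting cells, fell from 163 and 161 CPM to 72.1 and 81.1 CPM (log2 fold -1.08), and its relative Rb1 by 0.86 on the log2 scale. Cdkn1c, the p57 inhibitor, rose from 0.912 and 1.12 CPM to 4.07 and 2.90 CPM (log2 fold 1.78), and Cdk4 also rose. Of 40 DNA replication genes 12 rose and 2 fell. Orc1, a subunit of the origin recognition complex, rose from 13.4 and 14.4 CPM to 27.4 and 28.4 CPM (log2 fold 1.0), while the helicase subunit Mcm3 (-0.80) and Rpa1 fell. The count of 12 was 20 with library size alone, and 6, 4 and 5 without replicate A 4 days off, replicate A of day 12 and replicate B of day 12. The count of 2 was 1 without replicate A of either group and 5 without replicate B 4 days off. Of 30 mitosis genes 5 fell (16.7%) and 2 rose (6.67%), below the 18.8% and 18.0% of all genes. With library size alone 3 fell and 11 rose, so their direction depended on the scaling. Without replicate A 4 days off or replicate A of day 12 2 fell and 0 rose, and without replicate B of day 12 3 fell and 1 rose. Kif23, a kinesin of cytokinesis, fell from 92.4 and 95.2 CPM to 44.7 and 42.5 CPM (log2 fold -1.11).

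Of 18 p53 target genes 5 fell (27.8%) and 4 rose (22.2%), shares not far from the 18.8% and 18.0% of all genes, so the genes named next are given for themselves. Pmaip1, the BH3-only protein NOXA, fell from 48.9 and 49.9 CPM to 16.7 and 17.9 CPM (log2 fold -1.51), Phlda3 rose from 15.6 and 14.9 CPM to 45.1 and 39.3 CPM (log2 fold 1.47), and Trp53 rose from 50.7 and 53 CPM to 144 and 99.3 CPM (log2 fold 1.23). Of 14 BCL2 family genes 5 fell and 0 rose, Bak1 (-0.70) among them, while 2 rose with library size alone and 1 without replicate B 4 days off. Of 20 immediate-early and heat-shock genes 10 fell and 2 rose, and 0 or 1 rose without any 1 of the 4 libraries. Zfp36, which destabilises cytokine messages, fell from 103 and 87.4 CPM to 19.1 and 19.8 CPM (log2 fold -2.29, SE 0.20), and Dusp1, a phosphatase of MAP kinases, from 96.7 and 87.6 CPM to 18.7 and 19.0 CPM (log2 fold -2.29).

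Of 25 interferon-stimulated genes 11 fell and 1, Bst2, rose, a call lost without any 1 of the 4 libraries. The count of 11 became 5 without replicate A 4 days off, 6 without replicate A of day 12 and 4 without replicate B of day 12. Of 24 cholesterol synthesis genes 10 fell and 1 rose, and 0 rose without any 1 of the 4 libraries. The shares that fell were 44.0% for interferon-stimulated genes and 41.7% for cholesterol synthesis genes, against 18.8% of all genes. Those that rose were 4.0% and 4.17%, against 18.0%. Srebf2, the main regulator of cholesterol synthesis genes, fell from 662 and 648 CPM to 379 and 442 CPM (log2 fold -0.68). The count of 10 was 6 with library size alone and 2 without replicate A 4 days off, 6 without replicate B 4 days off, 3 without replicate A of day 12 and 5 without replicate B of day 12. Of 15 mitochondrially encoded genes 10 rose (66.7%, against 18.0% of all genes) and 0 fell, with a median log2 fold of 0.54. The ribosomal RNA mt-Rnr1 rose from 83.8 and 97.1 CPM to 405 and 226 CPM (log2 fold 1.80), and ND1, a complex I subunit, by a log2 fold of 0.62. The count of 10 was 3 without replicate A 4 days off, 10 without replicate B 4 days off, 5 without replicate A of day 12 and 6 without replicate B of day 12.

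The first 4 days on doxycycline, day 4 against day 0, share no library with the first 4 days off and were tested in the same fit. There 8082 genes were called by edgeR (59.2%), 3846 higher (28.2%) and 4236 lower (31.0%). Of the genes lower 4 days off, 2054 had been higher after 4 days on, which is 79.9% of the former and 53.4% of the latter. Of the genes higher 4 days off, 1882 had been lower after 4 days on, which is 76.5% and 44.4%. Only 117 genes were lower and 77 higher in both. Across all genes the 2 log2 folds had a Pearson r of -0.62 and a Spearman rho of -0.66, a description over 13652 genes that are not independent and share 1 normalisation.

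**Figure D5:**
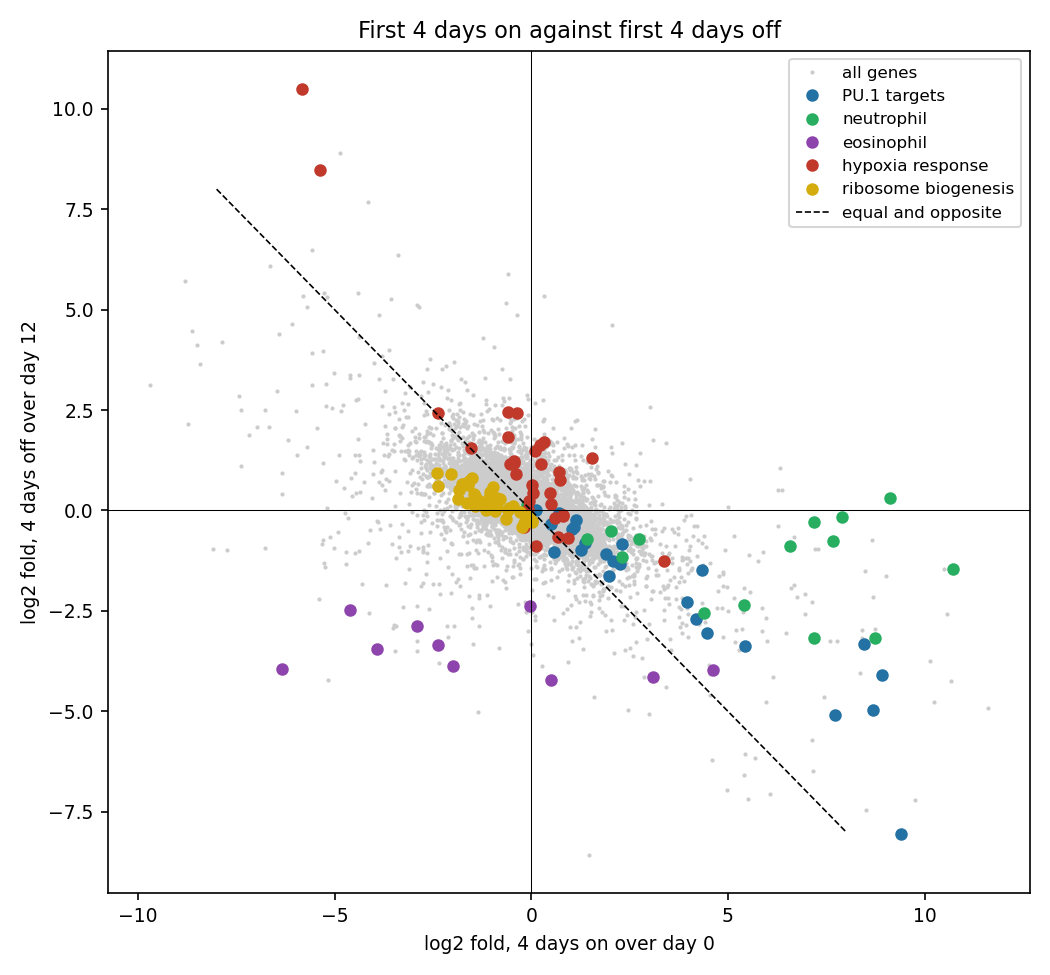
Log2 fold over the first 4 days off (vertical axis) against that over the first 4 days on (horizontal axis) for all genes (grey) and 5 lists (colours), with a dashed line where the changes are equal and opposite. PU.1 targets lie to the lower right and often above the line, eosinophil markers lie low on both sides of 0, and most hypoxia response genes lie above the horizontal axis near 0 on the other. The 2 hypoxia points at the top, Ak4 and P4ha2, had 0 reads at day 12, so their fitted folds are not bounds.

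The lists differed in how the 2 steps compared. PU.1 targets rose in 23 of 24 members on doxycycline with a median log2 fold of 2.17, against 19 falls and a median of -1.29 off it. Neutrophil genes rose in 14 of 15 with a median of 6.59 on, against 9 falls and -0.77 off. Eosinophil markers had 2 higher and 6 lower on (median -2.18) and 10 lower off (-3.66). Hypoxia response genes had 11 higher and 7 lower on, with a median of 0.07, and 21 higher and 4 lower off. Ribosome biogenesis genes had 0 higher and 33 lower on, with a median of -1.13, and 13 higher and 1 lower off.

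Whether the change off was the mirror of the change on was tested per gene as the sum of the 2 log2 changes, which is 0 for an exact mirror. The sum differed from 0 for 2663 genes by edgeR (19.5%), above 0 for 1293 (9.47%) and below 0 for 1370 (10.0%). For 14 of 24 PU.1 targets and 12 of 15 neutrophil genes the sum was above 0, and for 1 and 0 of them below. Since nearly all of these genes rose on doxycycline, a sum above 0 means a loss over 4 days off smaller than the gain over 4 days on. It does not say that the gain was still held at day 12 or kept after withdrawal. The neutrophil genes summed to 3770 and 3100 CPM after 4 days on, but to 1670 and 1690 CPM at day 12, before withdrawal. For 9 of 10 eosinophil markers the sum was below 0, and for 16 of 22 glycolytic genes it was above 0. For 18 of 32 hypoxia response genes it was above 0 and for 1 below, and for 27 of 38 ribosome biogenesis genes it was below 0 and for 0 above.

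Itgam had a sum of 5.15 (edgeR adjusted p = 3.2e-08), and Bnip3 one of 2.06 (SE 0.31, edgeR adjusted p = 3.1e-04). The largest sums below 0 were those of Rnase12, Ear1, Epx, Cd55, Plch2 and Prg3. Rnase12 had 46.2 and 25.4 CPM at day 0, 0.883 and 0.807 CPM after 4 days on, 14.5 and 18.3 CPM at day 12 and 3.37 and 3.79 CPM 4 days off (sum -7.59, SE 0.41, edgeR adjusted p = 2.3e-08). Cd55, a decay-accelerating complement regulator, had 78.8 and 42.3 CPM, then 3.61 and 3.39, then 45 and 46.6, and then 7.66 and 7.96 CPM at the same 4 times (sum -6.67, SE 0.34, edgeR adjusted p = 1.7e-08). Epx had 4930 and 1940 CPM, then 117 and 164, then 4700 and 5260, and then 818 and 953 CPM (sum -7.10, SE 0.48, edgeR adjusted p = 7.5e-07). These 3 genes were thus lower 4 days after doxycycline was added and again 4 days after it was removed.

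The largest sums above 0 were in neutrophil genes that had risen steeply on doxycycline. S100a8 had 3.81 and 7.67 CPM at day 0, 929 and 697 CPM after 4 days on, 47.4 and 37.7 CPM at day 12 and 38.0 and 31.8 CPM 4 days off (sum 6.90, SE 0.37, edgeR adjusted p = 3.4e-08). Most of its fall thus came before withdrawal, between day 4 and day 12. Ngp, which had 1 read over the day 0 libraries, had 20.4 and 21.1 CPM after 4 days on and 15.5 and 14.7 CPM at day 12 (sum 9.40, SE 0.68). Camp, Cstdc4, Stfa2 and Stfa2l1 were the other 4. The last 3 are members of a stefin gene cluster whose copies may share reads.

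Against the untreated cells at day 0, the libraries 4 days off still differed at 5171 genes by edgeR (37.9%), 2569 higher (18.8%) and 2602 lower (19.1%). This comparison shares the 4 days off libraries with the main one, so its values are given beside it only. PU.1 targets stood higher than at day 0 in 11 of 24 and lower in 2, and neutrophil genes higher in 12 of 15 and lower in 0. Hypoxia response genes stood higher in 28 of 32 and lower in 1, and glycolytic genes higher in 17 of 22, with a median log2 fold of 1.26. The genes farthest above day 0 by the naming rule were Ngp (8.95), Gapt (5.81), Alox15 (5.59) and Itgam (5.46), as log2 folds. Gapt, an adaptor that binds GRB2, had 0.707 and 0.148 CPM at day 0, 250 and 257 CPM at day 12 and 20.6 and 32.6 CPM 4 days off. The genes farthest below day 0 were Plch2 (-6.01), a phospholipase C, Ppp1r14c (-5.95), Thbd (-4.27), thrombomodulin, and Src (-3.95). Plch2 had 77.4 and 43.4 CPM at day 0 and 0.977 and 0.884 CPM 4 days off, and Thbd 17.1 and 18.1 CPM and then 1.03 and 0.758 CPM.

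Between 4 and 12 days off 6426 genes changed by edgeR (47.1%), 3212 higher (23.5%) and 3214 lower (23.5%). The 12 days off pair differed most between A and B of all groups, with a chi-square of 73.5 per gene. The main fit used 1 estimate of the spread shared by all groups. With only the libraries compared, 1111 genes were higher and 1154 lower, so the counts below depend on that sharing. PU.1 targets fell further in 16 of 24 and rose in 1, and neutrophil genes fell in 12 of 15 and rose in 0. S100a9 had a log2 fold of -0.77 over the first 4 days off. It then fell by 8.61 on the log2 scale (edgeR adjusted p = 6.3e-09) to a mean of 0.537 CPM. Ngp fell by 7.91 (edgeR adjusted p = 3.4e-08). Eosinophil markers fell in 6 of 10 and rose in 3. Ear1 went on to a mean of 0.588 CPM, while Epx came back to 3800 and 3920 CPM. Ribosome biogenesis genes rose in 34 of 38 and fell in 0, with a median log2 fold of 0.61, and cholesterol synthesis genes rose in 17 of 24 and fell in 1, with a median of 0.87. Hypoxia response genes rose further in 15 of 32 and fell in 2.

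The largest later rises were in genes that were still low 4 days off. Ptgds, a prostaglandin D synthase, had 21.4 and 16.3 CPM 4 days off and 2560 and 1330 CPM at 12 days off (log2 fold 6.69, edgeR adjusted p = 2.2e-08). Ptprf, a receptor tyrosine phosphatase, had 10.8 and 8.27 CPM and then 92.7 and 112 CPM (log2 fold 3.42, edgeR adjusted p = 1.2e-08). Trgc1, a T cell receptor gamma constant segment with similar copies, had 0.163 and 0.947 CPM and then 20.9 and 8.57 CPM (log2 fold 4.78), and Tnni1 rested on 9 reads 4 days off (log2 fold 5.39).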

How the data were processed

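The values used are the counts the authors deposited for 16 libraries, whole reads per Entrez gene with a gene length, per the file headers. RNA was prepared from sorted cells and sequenced on an Illumina NextSeq500, per the labels' protocols. The submitters' processing notes name mm10, featureCounts, edgeR and limma; the aligner and the strand setting are not given in the sources used here. All genes in the files exceeded 0.5 CPM in at least 3 libraries, so lower genes were not analysed here. Of 13652 genes, 13216 were named through the RefSeq GRCm38.p6 table.

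TMM-scaled counts of all 16 libraries entered 1 fit with 1 mean for each of 8 groups (edgeR 4.0.16, limma 3.58.1, R 4.3.3, quasi-likelihood F test, robust, two-sided, 8 residual degrees of freedom, common biological coefficient of variation 10.9%). A Benjamini-Hochberg adjusted p under 0.05 over all genes made a call. The 5 comparisons were 4 days off against day 12, 4 days on against day 0, the sum of both changes, 4 days off against day 0 and 12 days off against 4 days off. Standard errors are the log2 fold over the square root of F. The members and the 35 gene lists (2 to 40 measured members) were chosen with earlier results of these data known.

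Spi1, Bnip3 and Itgam were always named. In the main comparison so were the 12 largest called rises and falls with at least 10 CPM in the higher group, a symbol that is not predicted and libraries that did not overlap. From every list the 3 members lowest in adjusted p could be named. The sum named 6 genes and the other comparisons 4 genes in each direction. List members outside this rule were named after their values were seen. A few genes named by it are not reported here. Promoter windows came from RefSeq GRCm38.p6, with the first listed start per gene.

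Total counts of 12962801 to 26509803 set the precision, and intervals and floors from reads cover counting error alone. Alternatives were RLE factors, library size alone, no filter, a mean of at least 1 CPM, no mitochondrial genes, a replicate block, DESeq2 1.42.0, limma-voom, only the libraries compared, the Cd11b-high libraries as day 12, and leaving out each library. On simulated counts of 13652 genes, 67, 67 and 66 genes were changed 1.5-fold, 2-fold and 4-fold in 4 days off against day 12. The script recovered 52.2%, 97% and 100% of them, with 6 false calls among 172. In the measured libraries 36.8% of genes were called, and the replicate chi-square was 2.97 at day 12 and 13.4 4 days off. Recovery with so many changed genes and such unequal spread was not tested, so the simulated shares describe the simulation only.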

Additional observations from a re-analysis of the deposited data

Results flagged for a closer look

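For 12 genes the change over the first 4 days off differed from the mirror of the change over the first 4 days on, by the edgeR test of the sum of both log2 folds. They are the 6 largest sums in each direction by the naming rule, out of 2663 genes with a sum that differed from 0 (19.5%).

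Below 0 stood Rnase12 with a sum of -7.59 (SE 0.41), Ear1 with -7.36 (SE 0.35), Epx with -7.10 (SE 0.48), Cd55 with -6.67 (SE 0.34), Plch2 with -5.92 (SE 0.67) and Prg3 with -5.87 (SE 0.50). Ear1, an eosinophil ribonuclease, had 26.2 and 15.6 CPM at day 0 and 1.5 and 1.29 CPM after 4 days on, then 88.9 and 91.7 CPM at day 12 and 7.33 and 9.28 CPM 4 days off. Of the 6, all but Plch2 were lower in both steps. Plch2 went from 77.4 and 43.4 CPM to 0.768 and 0.726 CPM in 4 days on and was at 0.638 and 0.759 CPM at day 12 and 0.977 and 0.884 CPM 4 days off.

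Above 0 stood Ngp with 9.40 (SE 0.68), Stfa2l1 with 9.28 (SE 1.97), Camp with 7.73 (SE 0.73), Stfa2 with 7.39 (SE 1.01), Cstdc4 with 6.98 (SE 0.42) and S100a8 with 6.90 (SE 0.37). Camp, the cathelicidin of neutrophil granules, had 0.0544 and 0.369 CPM at day 0, 55.0 and 37.9 CPM after 4 days on, 1.19 and 1.24 CPM at day 12 and 0.815 and 1.39 CPM 4 days off. Cstdc4, a stefin, had 0.163 and 0.516 CPM, then 133 and 96.1, then 16.1 and 15.7, and then 6.79 and 4.36 CPM at the same times. Stfa2l1 had 0 reads at day 0, and Ngp and Stfa2 had 1 read each, so the sizes of their sums depend on the prior count of the fit. The call of Stfa2l1 was lost without replicate A 4 days off (sum 4.42, edgeR adjusted p = 1.0).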

How the results depend on the processing

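Of 158 results on single genes, 137 kept their direction and their side of the threshold in every alternative. Of the called results 0 changed direction. In 3 values of genes not called in the main comparison the direction changed. The log2 fold of Ngp went from 0.30 to -0.09 without replicate B 4 days off and to -0.38 with the Cd11b-high libraries as day 12. That of Camp went from -0.16 to 0.19 without replicate A 4 days off. Among named genes in 4 days off against day 12, 110 of 130 kept direction and side of the threshold in every alternative. Most of them were named for large folds or low adjusted p in the same libraries, so this share does not describe other genes. The alternative without a filter could not change any result, because the filter removed 0 genes. The call of S100a9 was lost with DESeq2 (adjusted p = 0.065) and without each library in turn, and Hdc and Gata2 were lost in the latter fits and with the Cd11b-high libraries as day 12. Counts for lists moved by more than 1.5 times in 133 of 980 values.

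Leaving out 1 library gave 1097 to 2222 genes higher and 1425 to 2248 lower 4 days off against day 12. For 4 days on against day 0 it gave 3241 to 3829 and 3102 to 3685. For the sum it gave 789 to 1228 above 0 and 852 to 1218 below, lowest without replicate B of day 12. For 4 days off against day 0 it gave 1647 to 2172 and 1384 to 2066, lowest without replicate B 4 days off, and without replicate A of day 0 1703 were lower. For 12 days off against 4 days off it gave 2255 to 4279 and 2376 to 3957. A group left with 1 library is assumed to vary like the others.

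With only the libraries compared, 2034 sums were above 0, and 1111 genes rose and 1154 fell from 4 to 12 days off. Library size alone gave 64.6% of calls higher 4 days off against 48.9% with TMM, and 1856 sums above 0 against 1039 below. The cause was not tested. A fit with a replicate block called 2628 genes higher and 2751 lower. The difference of A and B 4 days off correlated across genes at -0.056 with that at day 12, 0.043 with day 0, 0.264 with day 4, 0.118 with day 8, 0.211 with 8 days off and 0.251 with 12 days off. The labels do not say what the letters share. The block gave 1406 sums above 0 and 1498 below, 2686 and 2766 genes higher and lower against day 0, and 3354 and 3342 from 4 to 12 days off, none over 1.5 times from the fit without it. Genes under a few reads, such as Tnni1 (9 reads against 1, ratio 13.4, exact 95% counting interval 1.85 to 586), are limited by depth.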

Other observations

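A small set of genes went the same way in both steps. It was chosen after the values were seen, and carries no test beyond the 2 comparisons themselves. Besides the eosinophil genes, Fos and Fosb, subunits of the AP-1 factor, were lower after 4 days on (log2 folds -2.61 and -2.91) and after 4 days off (-2.45 and -2.37), and so was Akr1c13, an aldo-keto reductase (-3.26 and -2.40).

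Higher in both steps were Ndrg1 (1.54 and 1.31) and Aldoc, a brain-type aldolase (1.51 and 0.88). Ndrg1 had a mean of 17.7 CPM at day 0, 51.8 CPM after 4 days on, 37.0 CPM at day 12 and 91.8 CPM 4 days off. Others were Tmem119 (1.52 and 0.92), Mcam, a cell adhesion molecule (1.06 and 0.84), Tmem176b (0.96 and 0.87), Serpina1e (2.73 and 0.75) and Lmtk3 (0.72 and 0.97). Bnip3l-ps (0.77 and 0.82) is a pseudogene whose reads may come from Bnip3l, and Serpina1e has close copies.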
